A study of Mus musculus with 10 samples.

Results

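The genes described here encode the enzymes that use glutathione or thioredoxin to handle peroxides and reactive compounds, with the superoxide dismutases, the quinone reductase Nqo1 and the regulator Nfe2l2. A gene was taken where a probe set's only annotated symbol was a numbered glutathione transferase (Gst, Mgst), glutathione peroxidase (Gpx) or peroxiredoxin (Prdx), began with Txn, or was one of 9 further names, with Gpx5 left out. This gave 60 genes on 113 probe sets, out of 18193 genes and 45101 probe sets in all, and each gene was read from its brightest probe set. The rule used names and no measured value, but it was set with earlier results of these data known. The symbols Prdx1, Prdx5 and Prdx6 were not analysed here; Prdx1 shares its 5 probe sets with another symbol.

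RNA came from epididymal white adipose tissue, the fat pad that lies against the epididymis, of male C57BL/6J mice that were 8 weeks old when the diets began. One group ate normal chow (CRF-1) and the other a high-fat diet of 60% fat, for 8 weeks each. There were 5 mice in each group with 1 array each, so the tests measure the spread between mice. Levels are log2 intensities after quantile normalization, and every difference is high-fat minus chow on that log2 scale, with its standard error (SE) from limma. A gene is said to have risen or fallen only at an adjusted p under 0.05 over all 18193 genes. The intensities of different probe sets cannot be set against each other, so no gene is called more abundant than another.

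As background, glutathione is a small peptide thiol made by the ligases Gclc with Gclm and then Gss, and its oxidised form is reduced again by Gsr with NADPH. Glutathione transferases join it to reactive compounds such as lipid aldehydes, and glutathione peroxidases spend it to reduce peroxides. Thioredoxin and its reductases form a parallel system that drives the peroxiredoxins. Nfe2l2, often called Nrf2, is a transcription factor that switches on many of these genes through the antioxidant response element. In fat, such enzymes deal with the lipid peroxides and aldehydes that form from stored lipid.

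The arrays differed in more than diet. The 6 adipocyte markers found on the array had list means between 10.95 and 12.80 on chow and between 12.09 and 12.53 on the high-fat diet, as fits fat tissue. Markers of 3 other tissues were higher in every chow array than in every high-fat array: the epididymis and testis list (14 genes) had means of 7.51 to 11.97 against 3.71 to 5.31, the epithelial list (9 genes) 6.71 to 10.40 against 3.98 to 4.62, and the smooth muscle list (6 genes) 8.64 to 11.98 against 5.82 to 7.12. The macrophage list (12 genes) went the other way, from 7.12 to 8.06 on chow to 10.43 to 11.02. So did the adipose stroma list (8 genes), from 8.25 to 9.84 on chow to 9.92 to 10.86, with 4 of its genes called higher and 4 not passing. Chow arrays 1 and 2 stood apart, with the highest epithelial means of all (10.32 and 10.40) and the lowest adipocyte means (11.99 and 10.95). The 5' to 3' ratio of the actin control is a sign of RNA integrity. Its mean was 0.341 ± 0.073 in chow and 0.614 ± 0.038 in high-fat arrays (SD, n = 5 per diet). That of the Gapdh control was 0.726 ± 0.123 and 1.045 ± 0.026. For each the 2-sided exact permutation p was 0.00794, the smallest that 252 arrangements can give, and 0.0873 after adjustment over 22 controls. The mouse controls for 18S RNA, pyruvate carboxylase and the transferrin receptor had p of 0.683, 0.889 and 0.897 in that permutation test. The 18S ratio was 1.74 ± 0.39 in chow and 1.83 ± 0.23 in high-fat arrays. For pyruvate carboxylase the ratio was low (means 0.021 and 0.020), and for the transferrin receptor it varied widely (0.25 ± 0.14 and 0.22 ± 0.26). In bulk tissue, fewer cells of a type and less RNA per cell cannot be told apart. The part of these differences in the results that follow was not tested, beyond the fits without chow arrays 1 and 2 and with the epididymis and testis mean as a covariate.

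Of the 60 genes, 24 changed between the diets, 8 upward and 16 downward. That is 40.0%, where 25.9% of all genes changed (12.9% upward and 13.1% downward), and the median difference was -0.21 against -0.037 over all genes. The falls lay mostly among the glutathione transferases, 11 of 20 of which fell and 1 rose, while none of the 9 thioredoxins, reductases and thioredoxin-like genes passed. For 24 genes the 2 groups of arrays did not overlap, as they did not for 22.5% of all genes. The split between rises and falls depends on scaling: 10 rose and 14 fell for the values as deposited, and 20 rose and 13 fell after median centring of the arrays. All genes shifted the same way, with 23.3% called as deposited (2746 higher and 1490 lower) and 32.2% after median centring (4423 higher and 1440 lower). The median over all genes is then 0.078 and 0.21 in place of -0.037. Under all 3 scalings 19 of the 24 genes kept their call, 7 upward and 12 downward. Without chow arrays 1 and 2, 11 rose and 21 fell (38.2% of all genes passed); all 24 calls kept their direction, and Gpx1, Gpx6, Prdx2, Prdx3, Txn1, Txnip, Txndc5 and Sod1 passed besides. With the covariate 3 passed, Gclc, Gpx3 and Gstt1, against 2.75% of all genes; the covariate's own groups of arrays do not overlap.

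**Figure D1:**
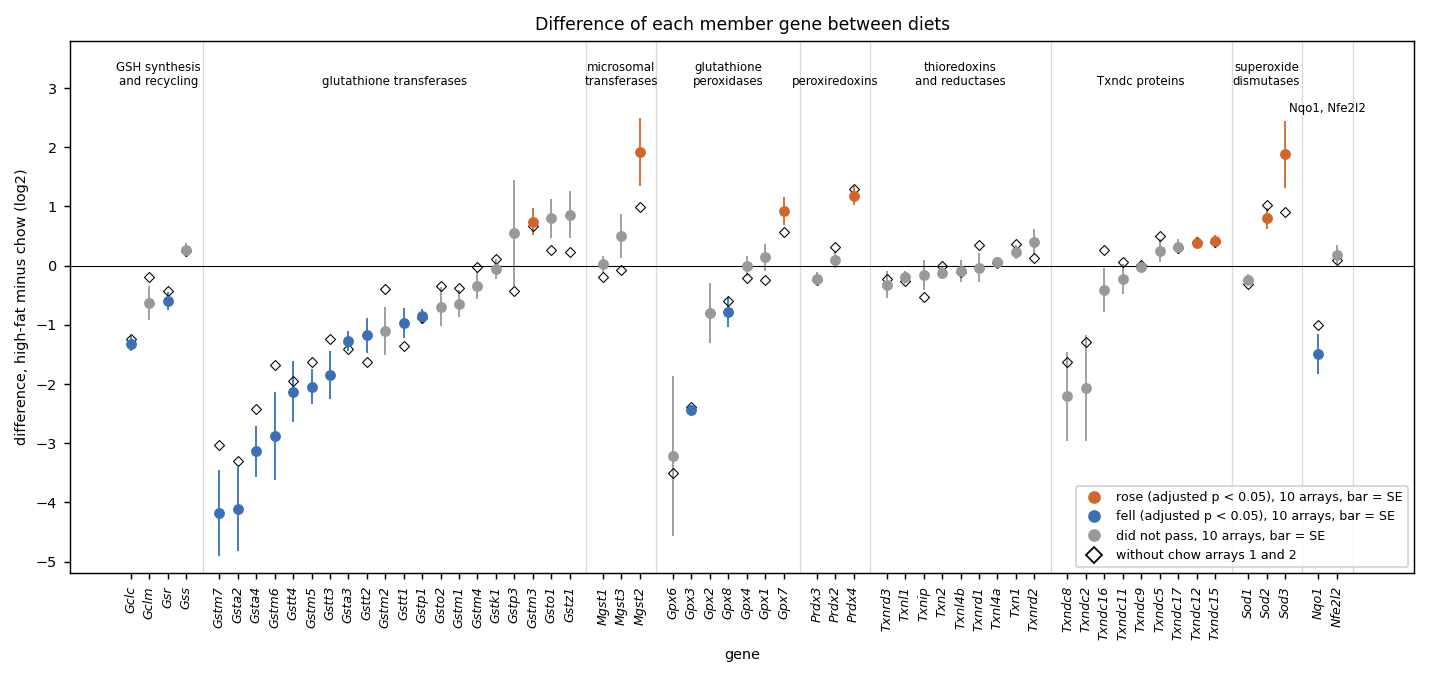
Difference between the diets (high-fat minus chow, log2) of each of the 60 genes, ordered within functional groups. Filled points are the fit to 10 arrays with bars of 1 SE, coloured by call, and open diamonds are the fit without chow arrays 1 and 2. The transferases run from -4.18 for Gstm7 to 0.86 for Gstz1, and Gpx3 and Gclc have diamonds close to their points, whereas the diamonds of Gstm7 and Gsta2 lie nearer to 0.

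Of both ligase subunits that start glutathione synthesis, Gclc fell and Gclm did not pass. Gclc, the catalytic subunit of glutamate-cysteine ligase, measured 8.91, 8.97, 8.51, 9.01 and 8.76 on chow arrays 1 to 5 and 7.73, 7.49, 7.54, 7.27 and 7.55 on high-fat arrays 1 to 5. No high-fat array reached any chow array, and Gclc fell by 1.32 (SE 0.13, limma adjusted p = 5.79e-05), a 2.49-fold change. Its other probe set fell by 1.55, and without chow arrays 1 and 2 the fall was 1.24. Gclm, the modifier subunit of the same ligase, measured 9.58, 10.45, 9.05, 8.995 and 8.73 on the chow arrays (1 to 5) and 8.58, 8.82, 8.75, 8.95 and 8.56 on the high-fat arrays (1 to 5). Chow arrays 1 to 4 lie above all high-fat arrays, with array 2 the highest, and chow array 5 falls within the high-fat range. Gclm had a difference of -0.63 that did not pass (SE 0.28, limma adjusted p = 0.125).

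Among the genes of the later steps Gsr fell and Gss did not pass. Glutathione synthetase, Gss, measured 6.88, 7.22, 6.93, 7.19 and 7.19 on chow and 7.55, 7.31, 7.25, 7.37 and 7.27 on high fat. All high-fat arrays lay above all chow arrays by a narrow margin, but the difference of 0.26 did not pass (limma adjusted p = 0.141); with median centring Gss rose by 0.60. Gsr, which reduces oxidised glutathione, measured 8.68, 8.64, 8.48, 8.26 and 7.91 on chow and 7.74, 7.88, 7.59, 7.85 and 7.90 on high fat. Chow array 5 nearly meets high-fat array 5, and Gsr fell by 0.60 (SE 0.15, limma adjusted p = 0.0153). The call did not hold on the deposited values (-0.35) and with median centring (-0.21). The other Gsr probe set differed by -0.21 and did not pass.

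All 3 alpha-class transferases that were measured fell. Gsta4, known for conjugating the lipid aldehyde 4-hydroxynonenal, measured 10.57, 9.54, 8.18, 8.50 and 8.15 on chow and 5.75, 6.25, 5.52, 6.13 and 5.60 on high fat. It fell by 3.14 (SE 0.43, limma adjusted p = 0.00046), with chow array 1 the highest and every high-fat array far below chow; without chow arrays 1 and 2 the fall was 2.43. Gsta2 measured 10.26, 6.99, 6.40, 7.15 and 6.18 on chow and 3.74, 2.15, 2.90, 3.53 and 4.09 on high fat. Chow array 1 stands above the other chow arrays, the high-fat arrays are dim, and the fall of 4.11 (SE 0.72) was 2.85 on the log2(value + 16) scale, which damps changes of dim probe sets. Gsta3 measured 8.57, 8.14, 8.80, 8.70 and 8.55 on chow and 7.60, 7.32, 6.87, 7.43 and 7.20 on high fat. Here chow arrays 1 and 2 were not the highest, the groups did not overlap, and the fall was 1.27 (SE 0.17), or 1.40 without those arrays. Its other probe set fell by 1.62.

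The mu-class genes lie side by side on chromosome 3 with no other coding gene between them, in the order Gstm5, Gstm7, Gstm6, Gstm3, Gstm2, Gstm1 and Gstm4. The first 3 in that order fell, the next rose, and the last 3 did not pass. Gstm5 measured 10.83, 11.82, 10.17, 10.78 and 9.96 on chow and 8.64, 8.72, 8.68, 8.90 and 8.42 on high fat, a fall of 2.04 (SE 0.29) with no overlap. Gstm7 measured 11.16, 11.89, 9.95, 8.62 and 7.41 on chow and 6.25, 5.69, 5.15, 5.52 and 5.51 on high fat. It varied widely among the chow mice, was lowest in chow array 5 and was still higher there than in any high-fat array; it fell by 4.18 (SE 0.72), and by 3.04 without chow arrays 1 and 2. The other, dim Gstm7 probe set differed by 0.27 and did not pass. Gstm6 measured 8.83, 10.16, 7.64, 6.38 and 5.50 on chow and 5.45, 4.51, 5.07, 4.63 and 4.46 on high fat. Chow arrays 2 and 1 are its highest and chow array 5 only just exceeds high-fat array 1; the fall of 2.88 (SE 0.74) became 1.68 without chow arrays 1 and 2.

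Gstm3 measured 4.68, 5.67, 5.42, 5.42 and 5.26 on chow and 6.03, 5.75, 5.83, 6.22 and 6.33 on high fat. It rose by 0.74 (SE 0.22, limma adjusted p = 0.0313), but its probe set also matches related sequences by its suffix, the probe set without such a suffix differed by -0.93, and the call did not hold on the deposited values. Leaving out 1 array, chow replicate 5 or high-fat replicate 1, 4 or 5, also ended the call, with differences of 0.59 to 0.84 over all single omissions. Gstm2, Gstm1 and Gstm4 differed by -1.11, -0.64 and -0.34 and did not pass; of the 4 Gstm1 probe sets the one not used with the next highest level (-0.71) had an adjusted p of 0.0498. Mu-class genes are close paralogs, so a probe set may read more than 1 of them.

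**Figure D2:**
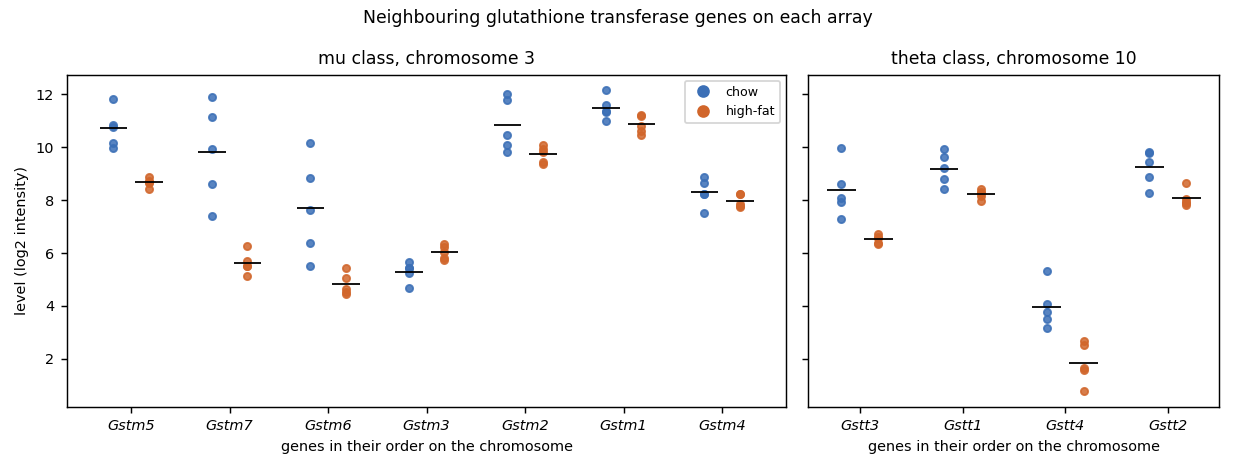
Level (log2 intensity) of the 7 mu-class genes on chromosome 3 and the 4 theta-class genes on chromosome 10, in chromosomal order; each point is 1 array and each line a group mean of 5. Chow and high-fat points separate for Gstm5, Gstm7, Gstm6, Gstm3, Gstt3 and Gstt4, and overlap for the others.

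The promoters of these genes were searched for the core letters of the antioxidant response element, TGACNNNGC, on both strands. In RefSeq windows from 250 bases before to 50 after the annotated start (GRCm38.p6), the letters were found in 12.4% of all 32851 windows and 15.5% of 71 windows of the genes described here. By gene, that was 11 of 53 genes with a window (20.8%, against 14% of all genes), among them 3 of 12 that fell, 0 of 7 that rose and 8 of 34 that did not pass. A match is a description of letters only. Sequence outside these windows was not searched, so a gene without a match here may have the letters further away. Besides Gclm, the genes with the letters that did not pass were Mgst1, Nfe2l2, Sod1, Txndc11, Txndc2, Txndc5 and Txnrd1. The windows of the 3 that fell and of Gclm, the ligase subunit, are shown as examples. They run 5' to 3' on the gene's strand with the match in capitals.
Gstm5, chr3:107895604-107895903, plus strand: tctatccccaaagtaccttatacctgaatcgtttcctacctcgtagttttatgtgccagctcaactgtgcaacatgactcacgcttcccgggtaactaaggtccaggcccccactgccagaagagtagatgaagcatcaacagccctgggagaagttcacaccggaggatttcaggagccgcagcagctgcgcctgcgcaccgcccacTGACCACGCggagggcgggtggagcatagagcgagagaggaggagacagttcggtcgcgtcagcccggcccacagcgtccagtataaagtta
Gstm7, chr3:107931565-107931864, minus strand: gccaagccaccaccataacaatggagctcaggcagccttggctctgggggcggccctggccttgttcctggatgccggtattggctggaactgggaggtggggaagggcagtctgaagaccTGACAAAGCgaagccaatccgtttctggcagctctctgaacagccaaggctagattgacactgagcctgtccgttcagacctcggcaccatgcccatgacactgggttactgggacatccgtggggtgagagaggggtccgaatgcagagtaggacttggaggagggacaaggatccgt
Gsta3, chr1:21240335-21240634, plus strand: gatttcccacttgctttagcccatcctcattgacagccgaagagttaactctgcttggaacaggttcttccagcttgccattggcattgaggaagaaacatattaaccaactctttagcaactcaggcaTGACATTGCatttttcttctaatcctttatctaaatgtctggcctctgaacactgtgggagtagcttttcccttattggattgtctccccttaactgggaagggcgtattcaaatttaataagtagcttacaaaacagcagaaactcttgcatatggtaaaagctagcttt
Gclm, chr3:122245307-122245606, plus strand: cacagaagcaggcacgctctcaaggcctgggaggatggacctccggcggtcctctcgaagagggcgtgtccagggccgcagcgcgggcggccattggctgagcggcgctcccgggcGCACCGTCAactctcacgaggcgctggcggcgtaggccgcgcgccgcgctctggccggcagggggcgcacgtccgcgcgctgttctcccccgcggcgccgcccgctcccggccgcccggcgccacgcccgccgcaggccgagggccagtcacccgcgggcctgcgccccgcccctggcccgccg
In Gstm5, Gstm7 and Gsta3 the letters read in the gene's direction, starting 42, 129 and 121 bases before the start; in Gclm they lie on the opposite strand. Gstm7 has 2 annotated windows, of which the other lacks the letters.

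All 4 theta-class genes fell; they too are neighbours, on chromosome 10. Gstt3 measured 8.61, 9.96, 8.08, 7.30 and 7.92 on chow and 6.58, 6.63, 6.38, 6.34 and 6.71 on high fat, a fall of 1.85 (SE 0.40) with no overlap. Gstt1 fell by 0.97 (SE 0.25) and Gstt2 by 1.18 (SE 0.30), both with overlapping groups. For Gstt1 chow array 2 lay just under high-fat array 2 (8.429 against 8.430). For Gstt2 chow array 1 lay under high-fat array 2 (8.28 against 8.66). Chow arrays 1 and 2 were the lowest chow arrays of both genes, and without those arrays the falls were 1.36 and 1.62. The Gstt1 call did not hold on the deposited values (-0.69) and with median centring (-0.56), and the Gstt2 call with median centring (-0.78). Gstt4 was dim and fell by 2.13, which is 0.72 on the log2(value + 16) scale.

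Among the other transferases the pi-class gene Gstp1 fell and the rest did not pass. Gstp1 measured 12.26, 12.02, 12.14, 12.47 and 11.98 on chow and 11.51, 11.41, 11.17, 11.30 and 11.19 on high fat. The chow arrays were alike, the groups did not overlap, and the fall was 0.86 (SE 0.12, limma adjusted p = 0.000591), or 0.88 without chow arrays 1 and 2. Gstp3 differed by 0.55 and was dim. The omega-class Gsto1, a thioltransferase, differed by 0.80, with its other probe set rising by 1.24; Gsto1 did pass upward for the values as deposited and with median centring. Gsto2 differed by -0.69, the mitochondrial and peroxisomal Gstk1 by -0.059, and Gstz1, an enzyme of tyrosine breakdown, by 0.86; Gstz1 too rose as deposited (1.18) and with median centring (1.31). Of the 8 transferases that did not pass, 5 had a difference below 0.

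Microsomal transferases are membrane proteins unrelated in sequence to the cytosolic ones. Mgst2, which can also make leukotriene C4, measured 6.96, 5.34, 7.87, 8.72 and 8.82 on chow and 8.97, 9.58, 9.31, 10.01 and 9.42 on high fat. It rose by 1.92 (SE 0.58, limma adjusted p = 0.0313), and its lowest values, in chow arrays 2 and 1, fall in the arrays with the lowest adipocyte means; without them the rise was 0.99. Leaving out chow replicate 1 or 3, or high-fat replicate 2, 3, 4 or 5, ended the Mgst2 call, with differences of 1.37 to 2.24 over these omissions and all others. Mgst1 differed by 0.020 and Mgst3 by 0.49, and neither passed.

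Gpx3, the secreted plasma glutathione peroxidase, had the smallest adjusted p of the 60 genes. It measured 12.60, 12.51, 12.56, 12.38 and 12.40 on chow and 10.001, 9.95, 10.05, 10.07 and 10.18 on high fat. Both groups were tight, the lowest chow array exceeded the highest high-fat array 4.61-fold, and Gpx3 fell by 2.44 (SE 0.091, limma adjusted p = 2.3e-07), a 5.42-fold change. The fall was 2.40 without chow arrays 1 and 2 and 2.42 with the covariate, and its adjusted p over the alternatives ran from 1.3e-08 to 0.000971. Gpx3 has 1 probe set here.

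Of the other peroxidases Gpx8 fell, Gpx7 rose and the rest did not pass. Gpx1, the cytosolic form, differed by 0.14 and Gpx4, which reduces lipid hydroperoxides in membranes, by -0.0074 (SE 0.23 and 0.16), and neither passed; without chow arrays 1 and 2 Gpx1 fell by 0.24. Gpx7 and Gpx8 are the forms of the endoplasmic reticulum, and they went opposite ways. Gpx7 measured 7.34, 7.54, 7.93, 8.43 and 8.68 on chow and 8.79, 9.12, 8.80, 9.03 and 8.80 on high fat, a rise of 0.92 (SE 0.24) without overlap, and 0.56 without chow arrays 1 and 2. Gpx8 measured 8.44, 9.85, 8.82, 8.58 and 8.63 on chow and 8.19, 7.65, 8.23, 7.99 and 8.36 on high fat. Chow array 2 is well above the rest, and the fall of 0.78 (SE 0.25, limma adjusted p = 0.0449) was lost for the values as deposited (-0.51), with median centring (-0.38) and without chow replicate 3 or any 1 high-fat replicate (all single omissions -0.88 to -0.53). Gpx2 and Gpx6, forms known from gut and from olfactory tissue, were dim and differed by -0.80 and -3.22; neither passed over all arrays, and Gpx6 fell by 3.51 without chow arrays 1 and 2.

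Of the 3 peroxiredoxins, which reduce peroxides with thioredoxin, Prdx4 rose. This form of the endoplasmic reticulum measured 8.45, 8.80, 8.05, 8.63 and 8.39 on chow and 9.28, 9.70, 9.87, 9.59 and 9.78 on high fat. The groups did not overlap and Prdx4 rose by 1.18 (SE 0.16, limma adjusted p = 0.000375); 2 of its 3 other probe sets rose too, by 1.05 and 0.57, and the dim one differed by 0.075. Prdx3, the mitochondrial form, differed by -0.22 and Prdx2, a cytosolic form, by 0.097, and neither passed over all arrays; without chow arrays 1 and 2 Prdx3 fell by 0.23 and Prdx2 rose by 0.31, and with median centring Prdx2 rose by 0.60.

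None of the 9 genes of the thioredoxin core passed in limma, and 0 had an unadjusted p under 0.05; under median centring, Txn1, Txnl1, Txnl4a and Txnrd2 rose. Thioredoxin itself, Txn1, differed by 0.23 (SE 0.12) and the mitochondrial Txn2 by -0.12 (SE 0.11); without chow arrays 1 and 2 Txn1 rose by 0.37. Txnrd1, the cytosolic reductase and a classical Nfe2l2 target, measured 9.89, 9.57, 8.96, 8.92 and 8.41 on chow and 9.07, 9.36, 9.17, 8.92 and 9.04 on high fat. The groups overlap fully, with chow arrays 1 and 2 highest and chow array 5 lowest, and the difference was -0.037 (SE 0.24, limma adjusted p = 0.929). Txnip, which binds and restrains thioredoxin and responds to glucose, measured 12.10, 11.09, 12.44, 12.55 and 12.55 on chow and 11.72, 12.02, 12.01, 12.10 and 12.07 on high fat. It differed by -0.16 (SE 0.26), and chow array 2 was far below all others; without chow arrays 1 and 2 the high-fat arrays all lay below chow and Txnip fell by 0.53 (adjusted p 0.00243 to 0.931 over the alternatives).

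Among the remaining members of this group, Txnrd2, the mitochondrial reductase, differed by 0.40 on the probe set used, while 2 dimmer probe sets rose by 1.15 and 0.84. Txnrd3 differed by -0.32, Txnl1 by -0.20 with another probe set falling by 0.66, and the splicing factors Txnl4a and Txnl4b by 0.054 and -0.086. Over all probe sets 17.9% passed at the same threshold.

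Of 9 proteins with thioredoxin domains, several of them in the endoplasmic reticulum, Txndc12 and Txndc15 rose and the rest did not pass. Txndc12, a small protein of that compartment, measured 8.59, 8.60, 8.55, 8.61 and 8.48 on chow and 8.98, 9.07, 8.87, 8.83 and 9.02 on high fat, a rise of 0.39 (SE 0.087) with no overlap. Txndc15 measured 10.12, 10.40, 10.12, 10.42 and 10.37 on chow and 10.70, 10.76, 10.61, 10.85 and 10.56 on high fat, a rise of 0.41 (SE 0.10) that was lost with the mean of both of its probe sets. These are changes of 1.31-fold and 1.33-fold. Txndc17, Txndc5, Txndc9, Txndc11 and Txndc16 differed by 0.32, 0.25, -0.015, -0.23 and -0.41 and did not pass, although another Txndc17 probe set rose by 0.47. Txndc17 rose on the deposited values (0.69) and with median centring (0.82), and Txndc5 (0.69) and Txndc9 (0.46) rose with the latter. Txndc2 and Txndc8, thioredoxins of spermatids, were dim and highest in chow array 2 (6.34 and 5.76). They differed by -2.07 and -2.21 and did not pass; Txndc8 fell on the deposited values (-2.37) and with median centring (-2.24).

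Superoxide dismutases turn superoxide into hydrogen peroxide in 3 places, and their changes differed. Sod3, the extracellular form, measured 6.56, 6.43, 8.14, 9.27 and 9.33 on chow and 9.94, 10.18, 9.35, 10.13 and 9.51 on high fat. Chow arrays 1 and 2 are its lowest, as for Mgst2, and chow array 5 nearly meets high-fat array 3; Sod3 rose by 1.88 (SE 0.56, limma adjusted p = 0.031), and by 0.91 without those arrays. Its call ended without chow replicate 1 or 3 or high-fat replicate 1, 2, 4 or 5 (single omissions 1.50 to 2.23). The other Sod3 probe set rose by 2.33.

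Sod2, the mitochondrial form, measured 11.40, 10.995, 10.45, 10.75 and 10.69 on chow and 11.78, 11.82, 11.54, 11.77 and 11.37 on high fat. Only chow array 1 reaches into the high-fat range, and Sod2 rose by 0.80 (SE 0.17, limma adjusted p = 0.00674) and by 1.02 without chow arrays 1 and 2; a second probe set rose by 1.05. Sod1, the cytosolic form, measured 12.23, 12.29, 12.43, 12.44 and 12.37 on chow and 12.18, 12.07, 12.19, 12.13 and 12.01 on high fat. All high-fat arrays lay just below all chow arrays, and the difference of -0.24 (SE 0.094) did not pass (limma adjusted p = 0.0864).

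Nqo1, a quinone reductase widely used as a readout of Nfe2l2, fell. It measured 7.46, 7.83, 6.90, 6.36 and 5.94 on chow and 5.46, 5.82, 5.36, 5.14 and 5.25 on high fat. Every high-fat array lay under every chow array, chow arrays 2 and 1 were the highest, and the fall was 1.49 (SE 0.34, limma adjusted p = 0.00802) or 0.997 without those arrays. Nfe2l2 itself measured 9.76, 9.22, 9.83, 9.65 and 9.67 on chow and 9.64, 9.47, 10.07, 9.78 and 10.11 on high fat. The groups overlap and the difference was 0.19 (SE 0.16, limma adjusted p = 0.426). With median centring Nfe2l2 rose by 0.64, whereas the mean of its probe sets passed downward, with a difference of -0.46 (limma adjusted p = 0.0480). A second, much dimmer Nfe2l2 probe set fell by 1.11, or 0.69 on the log2(value + 16) scale.

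**Figure D3:**
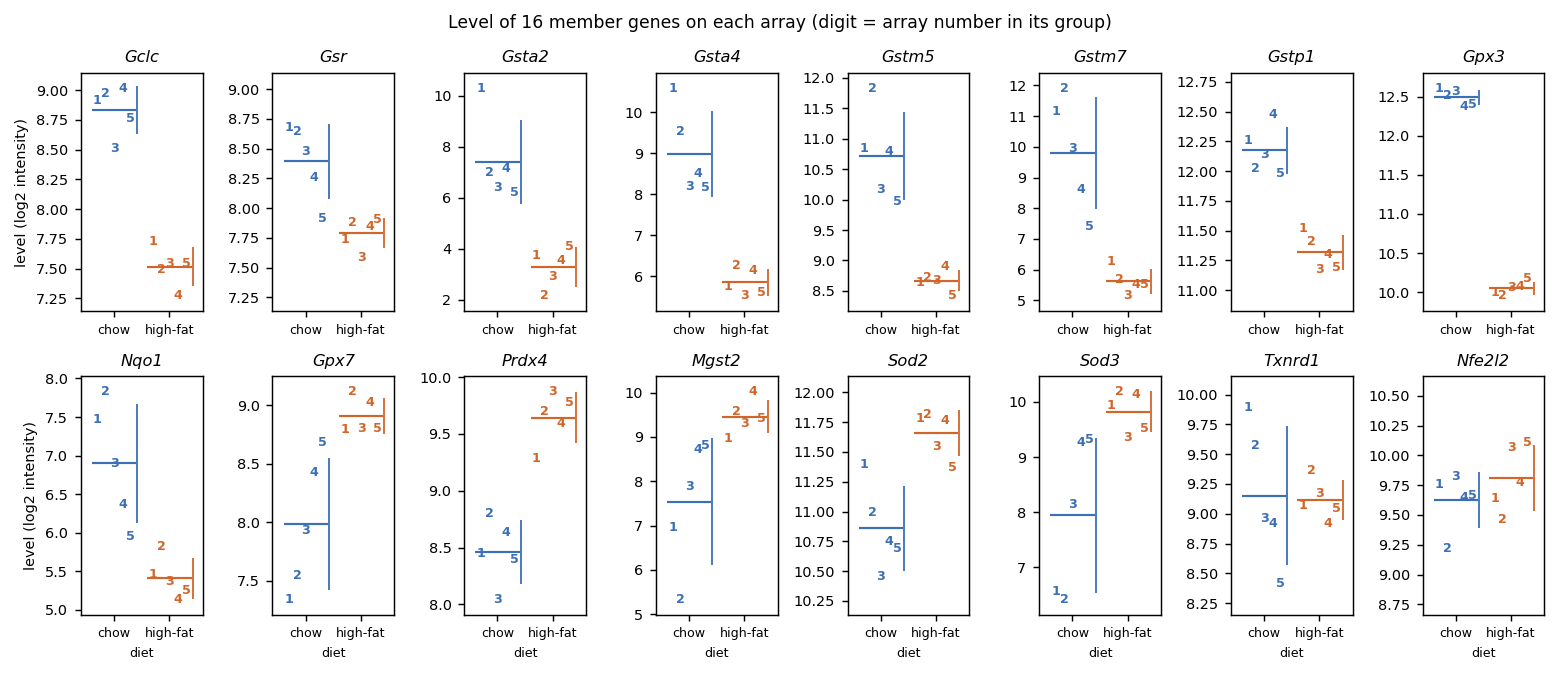
Level (log2 intensity) of 16 of the genes on every array, each digit being the array's number within its diet group, with lines at the group means and bars of 1 SD (n = 5); the axes differ between genes and do not start at 0. Gpx3, Gclc, Gstp1 and Prdx4 separate the diets with chow arrays close together, whereas Gstm7, Nqo1, Mgst2 and Sod3 have chow arrays 1 and 2 at the far end from the high-fat group.

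The chow arrays varied more than the high-fat arrays in these genes, as in most genes. The SD on chow exceeded that on the high-fat diet in 53 of 60, with medians of 0.52 and 0.18; over all genes the share was 76.8%. Among the 16 genes that fell, the chow SD ran from 0.097 to 1.87. Gpx3, Gclc, Gsta3, Gstp1 and Gsr had the lowest SDs, 0.097, 0.20, 0.25, 0.20 and 0.32. Those of Gpx8, Gstt1, Gstt2, Gstm5, Nqo1, Gstt4, Gstt3 and Gsta4 lay from 0.57 to 1.05. Gstm6, Gstm7 and Gsta2 had the highest, 1.87, 1.82 and 1.65, and Gstm7, Gstm6 and Nqo1 ranked the chow arrays 2, 1, 3, 4, 5 from high to low, the order of the epithelial marker mean. Among the chow arrays, of the 16 that fell, 11 were highest in chow array 1 or 2, and of the 8 that rose, 5 were lowest in chow array 1 or 2. Over all genes, 63.1% of those that fell were highest and 58.9% of those that rose were lowest in these 2, so the counts lie near the background. Of the 36 genes that did not pass, 21 were highest there. The part of epithelium in these values was not tested.

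**Figure D4:**
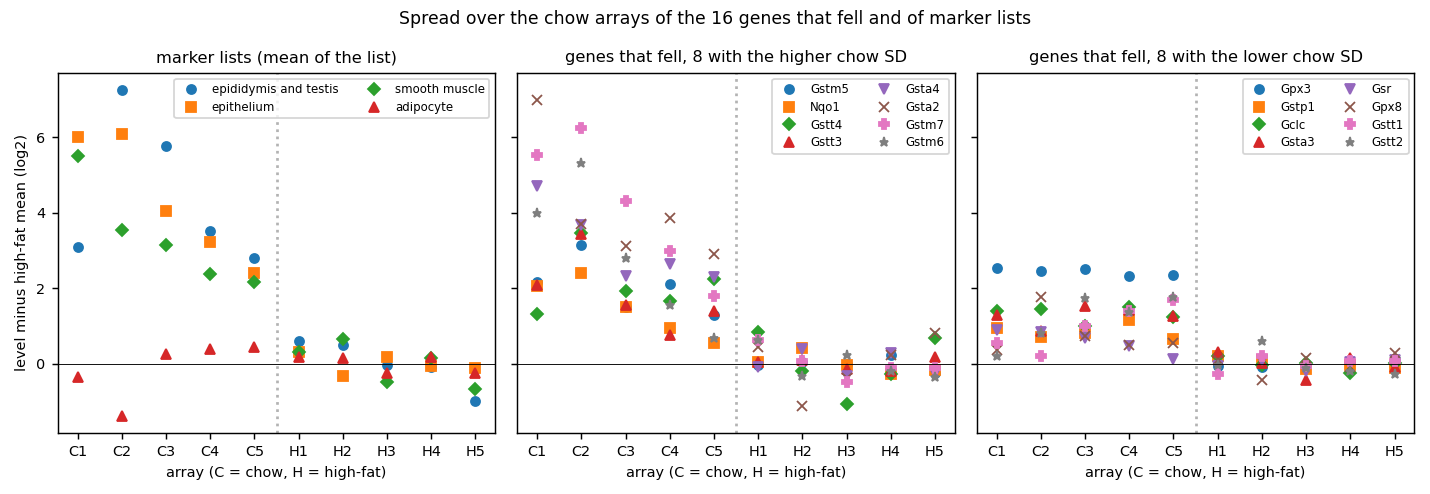
Level on each array minus the high-fat mean (log2) for 4 marker lists and the 16 genes that fell, split at the middle of their chow SDs; C1 to C5 are chow and H1 to H5 high-fat arrays, which have no order. The epithelial, smooth muscle and epididymis means and Gstm7, Gstm6 and Gsta2 vary widely over the chow arrays, Gpx3, Gclc, Gsta3 and Gstp1 little, and the others lie in between.

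Other genes of the pathway, from 4 lists, moved in both directions. Of 53 measured, 11 rose and 7 fell, 34.0% against 25.9% of all genes. That split also depends on the setting: 15 rose and 4 fell as deposited, 21 and 3 with median centring, and 14 and 18 without chow arrays 1 and 2. In glutathione supply and breakdown (14 genes) 1 rose and 4 fell. Cbs, which starts the making of cysteine from homocysteine, fell by 2.12 (SE 0.22), Cth, the next enzyme, by 1.62, Ahcy, which releases homocysteine, by 1.60, and Slc3a2, the partner chain of the cystine importer, by 0.88. Anpep, a surface aminopeptidase also found on myeloid cells, rose by 3.96. The importer chain Slc7a11 was dim and differed by -0.32.

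NADPH supply had 4 of 9 genes higher and 1 lower. Me1, malic enzyme, rose by 1.94 (SE 0.39), Idh1 by 1.60, Pgd of the pentose phosphate pathway by 1.09 and Taldo1 by 0.60, while Nnt, the mitochondrial transhydrogenase, fell by 0.60. Among 22 other redox and repair enzymes 6 rose and 2 fell. The 2 that fell were Nxn (-0.86) and Park7 (-0.34). The haem oxygenase Hmox1 rose by 2.77 (SE 0.34), the biliverdin reductases Blvra and Blvrb by 1.84 and 1.48, and the methionine sulfoxide reductase Msrb2 by 1.10, while the other haem oxygenase, Hmox2, differed by 0.45 and did not pass. Catalase, Cat, differed by 0.26 and Srxn1, which repairs peroxiredoxins, by 0.069, and neither passed. Without chow arrays 1 and 2 Cat and Srxn1 differed by -0.39 and 0.46 and passed, where 38.2% of all genes did. None of 8 regulators of the Nfe2l2 response passed in limma over all 10 arrays, and 3 had an unadjusted p under 0.05. Without chow arrays 1 and 2, 3 of the 8 fell, Maff (-2.03), Mafk (-1.13) and Mafg (-0.54). Over all arrays Keap1, which holds Nfe2l2 in check, differed by -0.19 and its competitor Bach1 by 0.55. The macrophage list mean was 10.43 to 11.02 and the adipose stroma mean 9.92 to 10.86 in the same high-fat arrays; their part in these values was not tested.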

How the data were processed

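RNA of 10 mice was measured on 10 Affymetrix arrays. A T7-(dT)24 primer was used to make cDNA, and biotin was built into the cRNA, per the labels' protocols. The authors deposited linear intensities, 1 per array for every one of 45101 probe sets; for the summary algorithm and scaling, the sources used here give nothing. Array medians ran from 17.9 to 27.4.

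The deposited intensities were raised to a floor at their 5th percentile (0.658) and log2 transformed. Since the array medians then differed by 0.613, above a limit of 0.5, the arrays were quantile normalized. The 64 control probe sets were left out. Names came from the platform annotation: 34958 probe sets had 1 symbol, 932 several and 9211 none listed, and all 60 genes described here bear the RefSeq symbol (GRCm38.p6). The probe set with the highest mean represents a gene. Limma 3.58.1 in R 4.3.3 (lmFit, eBayes with a trend) was fitted on 18193 genes with Benjamini-Hochberg adjustment at 0.05. Probe sets were fitted likewise over all 45037. Of 133 listed genes of the pathway and of cell types, 124 were found on the array. The fit was also run on simulated data for the high-fat against chow comparison over 18193 genes. It recovered 53% of 100 log2 changes of 1 and 82% of 100 log2 changes of 2. Of the 146 calls in that simulation, 11 were false. The measured data gave 4717 calls, so far fewer genes were called in the simulation. The simulated shares are therefore no estimate of recovery or of false calls in the measured data.

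Genes past the threshold are given on every array where the groups do not overlap and the mean exceeds the median of all probe sets. Values on every array are also given for Gclc, Gclm, Gss, Gsr, Sod1, Sod2, Sod3, Nqo1, Nfe2l2, Txnip and Txnrd1. By rule, up to 4 called genes with the largest changes are named from each pathway list. Others named there, called or not, were chosen after their values were seen. The genes, lists and alternatives were chosen with earlier results of these data known. Alternatives were other scalings, variance priors, array weights, a filter on dim genes, other probe sets, log2(value + 16), another floor, a block by replicate number, the covariate, and arrays left out.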

Additional observations from a re-analysis of the deposited data

Results flagged for a closer look

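In 7 of 120 groups of 5 arrays (60 genes, 2 diets), 1 array stood apart from the other 4 by Dixon's criterion (a gap over 0.71 of the group's range), where chance gives about 1 in 20, or 6. On chow, Gsta2 stood at 10.26 in array 1 against 6.18 to 7.15 in the others, Gstp3 was dim and lowest in array 1 (-0.60 against 3.71 to 4.67), and array 2 was highest for Gpx8 (9.85 against 8.44 to 8.82) and Txndc5 (9.72 against 8.67 to 8.97). On the high-fat diet, Gstt2 was highest in array 2 (8.66 against 7.80 to 8.04), Txnip lowest in array 1 (11.72 against 12.01 to 12.10) and Txnl1 lowest in array 4 (10.26 against 10.53 to 10.59). All 4 flags on chow lie in arrays 1 and 2.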

How the results depend on the processing

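Of the 24 genes called, 16 kept their call wherever they had a value, the covariate aside and single omissions included. Among these 16, Gsta2, Gstm6, Gstp1 and Gstt4 had a value in only 23 of the 24 alternatives. The first 3 have only a probe set with a letter suffix (_a_at), and an alternative left out all letter suffixes, such as _a, _s or _x. The filter on dim genes left out Gstt4. In all 10 single omissions 20 kept their call, and the exceptions there were Gstm3, Mgst2, Gpx8 and Sod3. The count of called genes among the 60 was 3 with the covariate and otherwise 20 to 33. The covariate also moved the count over all genes to 500 and that of the 53 other pathway genes (18) to 3. The latter was 28 with array weights, 32 without chow arrays 1 and 2, and 9 with probe sets lacking a letter suffix, which leave 41 of the 53 measured. Leaving out each array gave 20 to 27 called genes among the 60, 3652 to 5577 over all genes and 17 to 25 of the others. With the replicate number as a block 24 of the 60 were called, 6 upward and 18 downward, and 3762 of all genes. Same-numbered arrays did not deviate together (correlations of -0.020 to 0.0056). The labels give the numbers only as replicates, and such correlations cannot show whether they pair mice. The actin and Gapdh control differences (0.27 and 0.32) stayed at 0.26 to 0.30 and 0.28 to 0.36 with 1 array left out. The cause of each change was not tested. For the values as deposited the sign turned for Gstk1 (0.24), Gpx4 (0.25), Prdx3 (0.14), Txn2 (0.16), Txnip (0.096), Txnl1 (0.19), Txnl4b (0.055), Txnrd1 (0.28), Txndc9 (0.32). With median centring the sign turned for Gstk1 (0.38), Gstm4 (0.057), Gpx4 (0.38), Prdx3 (0.28), Txn2 (0.30), Txnip (0.23), Txnl1 (0.33), Txnl4b (0.19), Txnrd1 (0.41), Txnrd3 (0.031), Txndc11 (0.011), Txndc9 (0.46), Sod1 (0.10). With array weights the sign turned for Gstk1 (0.038), Gstp3 (-0.14), Mgst1 (-0.15), Gpx1 (-0.15), Txnrd1 (0.24), Txndc16 (0.14), Txndc9 (0.0077). With probe sets lacking a letter suffix the sign turned for Gstm3 (-0.93), Txnl1 (0.100), Txndc9 (0.26). Averaging all probe sets, the sign turned for Gstm3 (-0.093), Gpx4 (0.12), Txndc9 (0.034), Nfe2l2 (-0.46). With log2(value + 16) the sign turned for Gstp3 (-0.0028). With the epididymis and testis mean as a covariate the sign turned for Gclm (0.41), Gstk1 (0.28), Gstm2 (0.10), Gstm6 (0.018), Gsto1 (-0.42), Gsto2 (0.14), Gstz1 (-0.15), Mgst1 (-0.24), Mgst2 (-0.34), Mgst3 (-0.91), Gpx1 (-0.56), Gpx6 (2.66), Gpx8 (0.17), Txn2 (0.11), Txnrd1 (0.37), Txnrd3 (0.35), Txndc11 (0.66), Txndc16 (0.68), Txndc17 (-0.17), Txndc2 (0.092), Txndc8 (0.59), Nfe2l2 (-0.27). Without chow arrays 1 and 2 the sign turned for Gstk1 (0.12), Gstp3 (-0.43), Mgst1 (-0.19), Mgst3 (-0.081), Gpx1 (-0.24), Txn2 (0.0018), Txnrd1 (0.35), Txndc11 (0.065), Txndc16 (0.26), Txndc9 (0.018). Leaving out 1 array turned the sign of Gpx1 (-0.086 to 0.24), Gpx4 (-0.11 to 0.098), Gstk1 (-0.15 to 0.044), Gstp3 (-0.43 to 0.89), Mgst1 (-0.081 to 0.075), Txndc9 (-0.035 to 0.029), Txnl4b (-0.19 to 0.015), Txnrd1 (-0.22 to 0.15). The number of arrays limits the precision, and no detection calls were used for dim genes.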

Other observations

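Several of the 60 genes lie below the median level of all probe sets and were described above only in brief. Gpx6 measured 0.059, 8.84, 6.42, 4.57 and 4.56 on chow arrays 1 to 5 and 0.24 to 2.82 on the high-fat diet. Its 4 highest values are thus those of chow arrays 2 to 5, in the order 2, 3, 4, 5 that the epididymis and testis mean also gives to these 4 arrays (11.97, 10.48, 8.22 and 7.51), while chow array 1, with a mean of 7.80 for that list, is the lowest of all for Gpx6. The difference of -3.22 (SE 1.35) did not pass in limma over all arrays and did without chow arrays 1 and 2 (-3.51) and without chow array 1 alone (-4.43). The spermatid thioredoxins Txndc2 and Txndc8 were highest in chow array 2 too (6.34 and 5.76); their other 9 arrays ranged from -0.16 to 3.62 and from 0.14 to 3.89. Gpx2 ranged from 2.54 to 3.99 on chow and from 1.43 to 3.75 on the high-fat diet. Of the 7 genes below that median, Gstt4 was the one that passed.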
